A study of Mus musculus with 6 samples.

Results

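A set of 346 acetylated regions, each holding 3 or more separate open sites, was described in sorted sensory neurons from the dorsal root ganglia (DRG) of E11.5 mouse embryos. The regions were chosen by 2 measured values. Each is a peak of acetylation of lysine 27 on histone H3 (H3K27ac, mapped by ChIP-seq) under 4000 bp wide. Each shares at least 1 bp with 3 or more peaks of open chromatin (mapped by ATAC-seq, in which a transposase cuts accessible DNA). They are 346 of 19924 H3K27ac peaks on chromosomes 1 to 19, X and Y, and 1.77% of the 19499 peaks under 4000 bp. Of the others under 4000 bp, 2457 held exactly 2 ATAC peaks, 10544 held exactly 1 and 6152 held none. Width and the number of ATAC peaks are therefore the rule and not a result, and the values of both are given as a description.

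The cells came from Runx3-BAC-GFP-CB6 transgenic mice, in which GFP expressed from a Runx3 bacterial artificial chromosome marks the cells that were sorted, named TrkC proprioceptive neurons in the labels. The ATAC group and the H3K27ac group (antibody ab4729) had 2 replicates each, with 50000 cells per preparation. The ganglia had been dissociated with enzymes, and the cells were fixed with PFA, sorted and frozen before either assay. All groups share the transgene, the stage and the sort, and whether embryos were pooled is not given in the sources used here. Each assay is represented by 1 consensus list of peak positions, with no signal and no value per sample, so depth is unknown and no spread between replicates can be given. An input group of 2 samples was not used here. Of the genes that define the sorted lineage, Ntrk3, which encodes TrkC, had 4 H3K27ac and 7 ATAC peaks within 1 kb of the gene, and Runx3 had 3 and 13. The transgene is built from the Runx3 locus, and its part in the count there was not tested. Pou4f1 and Isl1, which encode transcription factors of sensory neurons, had 2 and 1 H3K27ac peaks. None of 15 endothelial genes had an H3K27ac peak under 4000 bp with an ATAC peak at an end, and 2 of 16 blood and immune genes had. The same count was 3 of 17 for proprioceptor genes, 14 of 24 for pan-neuronal genes and 10153 for all 21887 protein-coding genes. It was 1 of 20 for muscle and mesenchyme genes, 2 of 20 for spinal cord neuron genes and 1 of 20 for nociceptor and thermoreceptor genes. The proprioceptor share was thus below that of all genes. H3K27ac peaks of 4000 bp or wider, of which 220 of 425 lay within 1 kb of a gene end, do not enter these counts. A gene without a counted peak can therefore still have a wider one at an end. These counts are no test of the identity of the sorted cells.

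Open sites are stretches where nucleosomes, the spools of histone protein that package DNA, are displaced, often by transcription factors or by the machinery that starts transcription. Acetylation of H3K27 marks the nucleosomes that flank active promoters and enhancers, so an acetylated region usually surrounds an open site. An open site below means a called ATAC peak. A region with several open sites is one in which ATAC peaks alternate with stretches without one under a single block of acetylation. Whether those stretches are closed cannot be told from peak positions alone. Positions below are on the mm10 build (GRCm38) and counted from 1. Genes and start sites are those of RefSeq for that assembly, and bracketed ranges behind a share are its 95% Wilson interval, which covers only counting error.

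Most of these regions lay at promoters, and the DNA just upstream of the start site is shown for 6 of the regions with the most ATAC peaks, where the annotated start window touches an ATAC peak. Each line gives 160 bases of RefSeq sequence (GRCm38.p6), 5′ to 3′ on the strand of the gene and ending at the base before the start site. Capitals mark matches on either strand to GGGCGG (the GC box), CCAAT (the CCAAT box), CCGGAAG (a core bound by ETS factors), TATAAA (the TATA box) or TGACGTCA (the cyclic AMP response element, CRE).
LOC108167694, chr9:124423401-124423560, minus strand: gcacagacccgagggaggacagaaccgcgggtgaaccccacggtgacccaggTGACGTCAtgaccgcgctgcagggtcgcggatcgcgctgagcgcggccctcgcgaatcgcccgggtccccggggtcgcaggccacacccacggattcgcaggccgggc
Ddx3x, chrX:13280862-13281021, plus strand: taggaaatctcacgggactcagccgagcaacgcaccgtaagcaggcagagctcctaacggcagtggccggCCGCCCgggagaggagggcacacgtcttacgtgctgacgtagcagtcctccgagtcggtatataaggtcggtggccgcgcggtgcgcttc
Lmtk3, chr7:45783747-45783906, plus strand: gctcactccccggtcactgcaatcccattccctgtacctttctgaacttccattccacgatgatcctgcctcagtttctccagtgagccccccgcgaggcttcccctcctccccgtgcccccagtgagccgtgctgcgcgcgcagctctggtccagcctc
Klhl1, chr14:96519035-96519194, minus strand: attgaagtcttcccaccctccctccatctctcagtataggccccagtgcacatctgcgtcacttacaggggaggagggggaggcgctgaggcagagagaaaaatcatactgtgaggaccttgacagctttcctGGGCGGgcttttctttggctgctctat
Kat2b, chr17:53566811-53566970, plus strand: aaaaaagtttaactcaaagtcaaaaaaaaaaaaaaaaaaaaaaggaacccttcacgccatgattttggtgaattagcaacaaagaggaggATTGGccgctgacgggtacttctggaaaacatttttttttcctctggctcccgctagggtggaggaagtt
Tnrc6b, chr15:80711153-80711312, plus strand: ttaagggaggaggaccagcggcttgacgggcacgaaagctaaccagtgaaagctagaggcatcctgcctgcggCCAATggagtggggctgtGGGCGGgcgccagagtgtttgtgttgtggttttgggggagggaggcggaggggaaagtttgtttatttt
The stretches differ in composition: G and C make up 73.1% of the LOC108167694 stretch, 63.8% of those of Ddx3x and Lmtk3, 57.5% at Tnrc6b, 54.4% at Klhl1 and 38.8% at Kat2b. All 160 bases at LOC108167694 and Ddx3x lay inside an ATAC peak, as did 127 at Tnrc6b, 107 at Klhl1, 71 at Kat2b and 50 at Lmtk3. A GC box stood at Ddx3x, Klhl1 and Tnrc6b, a CCAAT box at Kat2b and Tnrc6b, and the CRE at LOC108167694 alone. The Lmtk3 stretch held none of these 5 motifs. Among all 32851 RefSeq windows, the same 160 upstream bases held a GC box in 29.3%, a CCAAT box in 25.6%, the ETS core in 5.69%, a TATA box in 8.01% and the CRE in 1.39%.

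The region with the most open sites held 6 of them. It lay at chr9:124422581-124426245, at annotated ends of LOC108167694 and Gm20783, and no H3K27ac or ATAC peak lay further along the chromosome in either list. Its ATAC peaks were 99, 1064, 205, 271, 288 and 373 bp wide, with gaps of 218, 123, 300, 359 and 138 bp between them. The peak of 1064 bp was the widest ATAC peak in any of the 346 regions. 3 regions held 5 ATAC peaks, 29 held 4 and 313 held 3.

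The regions with 5 open sites lay at Ddx3x, Lmtk3 and Nsd1. At Ddx3x, an X-linked RNA helicase gene (chrX:13279891-13283281), 5 ATAC peaks of 147 to 389 bp were packed into 1706 bp of the 3391 bp of acetylation, with gaps of 202, 70, 110 and 120 bp. At Lmtk3, which encodes a kinase of the lemur family (chr7:45783682-45787147), the peaks spanned 3740 bp, more than the acetylated width, and the gaps of 158, 1064, 413 and 651 bp were longer. At Nsd1, a histone H3 lysine 36 methyltransferase gene (chr13:55209962-55213678), the gaps were 487, 243, 121 and 124 bp. The same number of open sites thus stood tightly packed at Ddx3x and spread out at Lmtk3.

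Of the regions with 4 open sites, the 8 narrowest were 1139 to 2090 bp wide. The narrowest had Lmo2, the gene of a LIM-domain cofactor, as the nearest gene (chr2:103969686-103970824, 11054 bp from an annotated end). Its 4 ATAC peaks of 223, 139, 442 and 130 bp stood at nearly equal gaps of 165, 172 and 156 bp. At Klhl1, which encodes a kelch-like protein (chr14:96518281-96519570), the gaps were 94, 161 and 279 bp, and the next H3K27ac peak was 810379 bp away, the farthest for any of the 346 regions. Kat2b, a histone acetyltransferase gene, had gaps of 303, 123 and 188 bp. Tnrc6b, whose product acts in silencing by microRNAs, had gaps of 127, 179 and 328 bp, and Rictor, a subunit of the kinase complex mTORC2, had 152, 133 and 292 bp. The gaps were 172, 113 and 428 bp at the tetraspanin gene Tspan2. At the region shared by Mrpl40, a mitochondrial ribosomal protein gene, and Hira, a histone chaperone gene, they were 109, 131 and 261 bp. At Cdk9, the kinase of the elongation factor P-TEFb, they were 138, 116 and 141 bp. In these 8 regions, 18 of 24 gaps were 200 bp or less, against 385 of all 730 gaps (52.7%); the 8 were picked as the narrowest, which favours short gaps. The map of the 12 regions with the most ATAC peaks shows them.

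**Figure D1:**
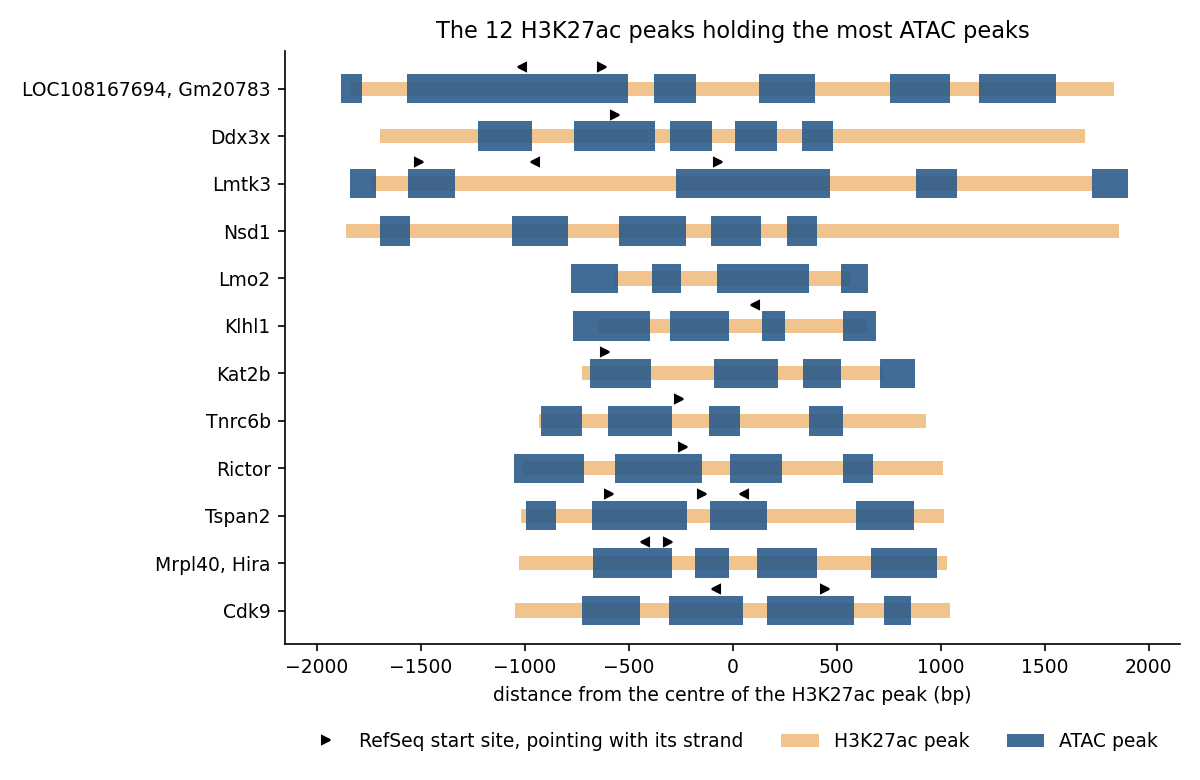
Positions of ATAC peaks (dark blocks) and RefSeq start sites (arrowheads pointing with the strand) in the 12 H3K27ac peaks (light bars) that hold the most ATAC peaks, in bp from the centre of the H3K27ac peak. The region at LOC108167694 and Gm20783 holds 6 ATAC peaks, those of Ddx3x, Lmtk3 and Nsd1 hold 5 and the others hold 4; start sites are those inside the H3K27ac peak.

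The rule asks for several separate ATAC peaks within a limited width and so favours narrow, closely spaced ones. The widths and coverage of the open sites are therefore a description with no test. The 346 regions had a median width of 2294.5 bp (range 554 to 3993) and held 1076 ATAC peaks, 2.46% of those on these chromosomes. An ATAC peak in them had a median width of 254 bp, against 423 bp for the ATAC peak of regions holding exactly 1 and 217 bp for all 43652 ATAC peaks. The widest ATAC peak of a region had a median of 403 bp and the narrowest 164.5 bp. From the outer edge of its first to that of its last ATAC peak, a region's open sites spanned a median of 1469.5 bp. Open chromatin covered a median of 39.0% of the region (quartiles 29.2 and 47.9%). Regions holding exactly 1 ATAC peak, weighted to the same distribution of H3K27ac widths, were covered to 23.3% on average, against a mean of 39.3% here, and their ATAC peak was 493 bp wide on average, against 426 bp for the widest ATAC peak here. Every ATAC peak lay wholly inside the H3K27ac peak in 246 of the 346 regions, and in the other 100 at least 1 reached past an edge.

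Gaps between neighbouring open sites clustered between 100 and 200 bp. The 730 gaps had a median of 181.5 bp (quartiles 120 and 430.25, range 16 to 2693), and the midpoints of neighbouring ATAC peaks lay a median of 519 bp apart. Of the 690 gaps up to 1000 bp, 291 (42.2%) were from 100 to under 200 bp, 93 (13.5%) were shorter and 117 (17.0%) were 500 bp or longer. The same range held 42.5% of the 2330 gaps in H3K27ac peaks with exactly 2 ATAC peaks. It held 26.2% of the 1211 gaps up to 1000 bp between neighbouring ATAC peaks that overlapped no H3K27ac peak, of which 34.9% were 500 bp or longer. The 3 sets of gaps are described with no test, because the rule caps how far apart the open sites of a region can lie. How the authors' peak calling joins or divides nearby signal is not given, and when ATAC peaks with gaps of 150 bp or less were joined, 134 regions still held 3 or more.

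**Figure D2:**
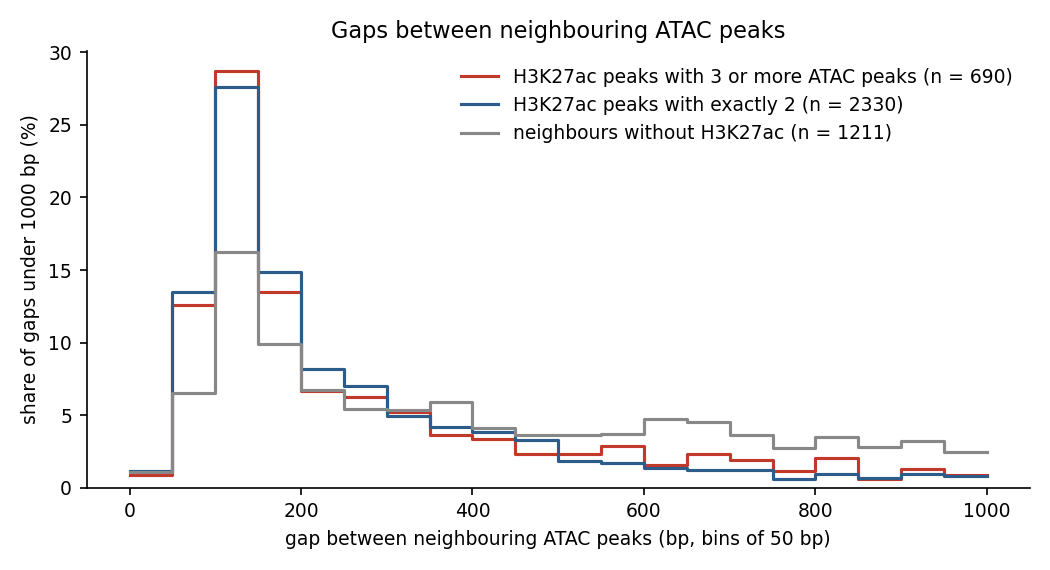
Share of gaps under 1000 bp (y axis, percent) by gap length (x axis, bins of 50 bp) for neighbouring ATAC peaks in the 346 regions, in H3K27ac peaks with exactly 2 ATAC peaks, and for neighbouring ATAC peaks that overlap no H3K27ac peak. All 3 lines peak between 100 and 150 bp, and the line of the set without H3K27ac is lower there and higher beyond 500 bp.

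The 313 regions with 3 open sites fell into 3 layouts. In 90 (28.8%) both gaps were 200 bp or less, in 158 (50.5%) 1 gap was 200 bp or less and the other longer, and in 65 (20.8%) both were longer. The widest of the 3 ATAC peaks was the middle one in 122 regions (39.0%). The regions with both gaps short had a median width of 1742.5 bp, those with 1 short gap 2247 bp, and those with none 2987 bp. The share at a gene end, meaning no more than 1 kb from either end of a protein-coding gene as annotated, was 86.7% (78.1 to 92.2), 76.6% (69.4 to 82.5) and 73.8% (62.0 to 83.0) in that order, with overlapping intervals.

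The extremes of spacing show how far these layouts differ. The shortest median gaps, 54, 64 and 75 bp, belonged to 3 regions at gene ends. These were the region of Ap3m1, a subunit of the adaptor complex AP-3, and Adk, adenosine kinase (gaps of 92 and 16 bp), that of Map2k2, the kinase MEK2 (60 and 68 bp), and that of the scaffold gene Dlg5 (54 and 96 bp). The region of Akap8 and Akap8l also had a median gap of 75 bp. The longest median gaps, 1290.5, 1285.5 and 1220.5 bp, belonged to regions near Gfra3, at the cohesin gene Stag2 and inside Per1, a circadian clock gene. The narrowest regions were 554 bp wide at Chst1, a sulfotransferase gene, 555 bp at Nme6, a gene of the nucleoside diphosphate kinase family, and 583 bp near the corepressor gene Irf2bp2. Their open sites spanned 797, 625 and 749 bp from first to last edge with gaps included, so each H3K27ac peak was narrower than that span. At the upper threshold, the widest regions included were 3973 bp (nearest gene Spry2), 3976 bp (Gfra3) and 3993 bp (Hivep2), and the narrowest left out were 4046 bp (Adgrl2), 4058 bp (Spen) and 4084 bp (Lmo4). The region of Hivep2 held 4 ATAC peaks and the other 5 held 3.

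The regions lay at gene ends more often than equally wide H3K27ac peaks with exactly 1 ATAC peak. Of the 346, 276 (79.8%, 75.2 to 83.7) were at a gene end, where all H3K27ac peaks under 4000 bp with an ATAC peak had 66.3%. The share was 63.8% of peaks with exactly 1 ATAC peak, and 59.5% after weighting those to the widths of the 346 regions. A high share was not particular to the 346. Among H3K27ac peaks of 4000 bp or wider, 96 held 3 or more ATAC peaks, and 82.3% of these lay at a gene end. All 425 peaks of that width had 51.8%, and this difference was not tested. In a logistic fit over 11957 H3K27ac peaks with width in bins of 250 bp, the odds ratio was 2.46 (95% interval 1.84 to 3.28; n = 346 regions; Benjamini-Hochberg adjusted Wald p = 1.2e-08 over 9 outcomes, standard errors clustered on 1 Mb windows). With only the wider 50% of the ATAC peaks, fewer regions met the rule (n = 80) and the call was lost (odds ratio 2.17, adjusted p = 0.0644). Peaks in 1 list are not replicates of a condition, so this and the following tests describe these consensus lists and not the spread between animals.

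Regions at the ends of several genes were also more frequent. Ends of 2 or more protein-coding genes lay within 1 kb of 78 regions (22.5%, 18.5 to 27.2), where all such peaks with an ATAC peak had 12%, and equally wide peaks with exactly 1 ATAC peak had 12.6%. The odds ratio was 1.76 (1.36 to 2.29; n = 346; adjusted Wald p = 7.89e-05). Examples are the Mrpl40 and Hira region and the Ap3m1 and Adk region above. The call was lost with the wider 50% of the ATAC peaks (adjusted p = 0.0644, n = 80) and for regions with 4 or more ATAC peaks (adjusted p = 0.396, n = 33).

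Regions away from gene ends were correspondingly fewer. Of the 346, 50 (14.5%, 11.1 to 18.5) lay inside a gene and over 1 kb from any end, against 20.4% of all such peaks with an ATAC peak and 26.2% of equally wide peaks with exactly 1 (odds ratio 0.506, 0.368 to 0.695; n = 346; adjusted Wald p = 7.89e-05). Only 20 (5.78%, 3.77 to 8.76) lay between genes, against 13.3% of all such peaks and 14.3% at equal width (odds ratio 0.401, 0.246 to 0.653; n = 346; adjusted p = 0.000553). Both calls were lost with the wider 50% of the ATAC peaks (adjusted p = 0.0644 and 0.565, n = 80) and for 4 or more ATAC peaks (0.0845 and 0.141, n = 33). The call between genes was also lost with joined ATAC peaks (adjusted p = 0.0545, n = 134). The position classes exclude each other, so these differences are not independent of the one at gene ends.

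**Figure D3:**
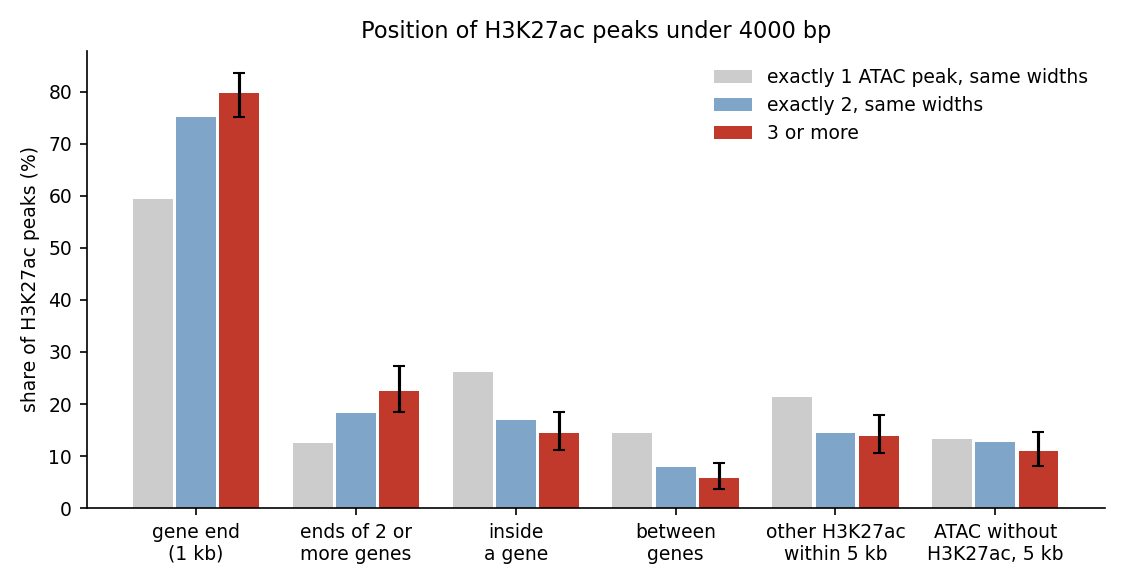
Share of H3K27ac peaks under 4000 bp (y axis, percent) in each position class, for peaks with exactly 1 or exactly 2 ATAC peaks, weighted to the widths of the 346 regions, and for the 346 regions with 3 or more (bars show 95% Wilson intervals). At gene ends the shares are 59.5, 75.1 and 79.8%, and between genes they are 14.3, 7.99 and 5.78%.

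H3K27ac peaks with exactly 2 ATAC peaks were closer to the 346 regions than those with 1. Weighted to the same widths, 75.1% of them lay at a gene end and 18.2% at ends of 2 or more genes. When the 346 regions were set against them directly, a step chosen after seeing the data, they lay higher in both classes, with odds ratios of 1.53 (1.15 to 2.05) and 1.46 (1.12 to 1.91; n = 346), each with an adjusted Wald p of 0.0236 over 9 outcomes. The other 7 outcomes did not pass in that comparison; inside genes, for example, the odds ratio was 0.738 (0.533 to 1.02).

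The regions had another block of acetylation close by less often than equally wide peaks with exactly 1 ATAC peak, but at a share near that of all peaks. A further H3K27ac peak lay within 5 kb of 48 regions (13.9%, 10.6 to 17.9), against 13.3% of all such peaks with an ATAC peak and 21.4% of equally wide peaks with exactly 1 ATAC peak. The odds ratio was 0.615 (0.442 to 0.856; n = 346; adjusted Wald p = 0.007), and without a term for width it was 1.02. Equally wide peaks with exactly 2 ATAC peaks had 14.5%, and against them the difference did not pass (odds ratio 0.872, 0.630 to 1.21; n = 346; adjusted Wald p = 0.499). The call was also lost with joined ATAC peaks (adjusted p = 0.159, n = 134), with the wider 50% (0.354, n = 80) and for 4 or more ATAC peaks (0.108, n = 33). An ATAC peak without H3K27ac lay within 5 kb of 38 regions (11.0%, 8.11 to 14.7), against 14.1% of all such peaks and 13.2% at equal width. That difference did not pass (odds ratio 0.806, 0.569 to 1.14; n = 346; adjusted p = 0.25).

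**Figure D4:**
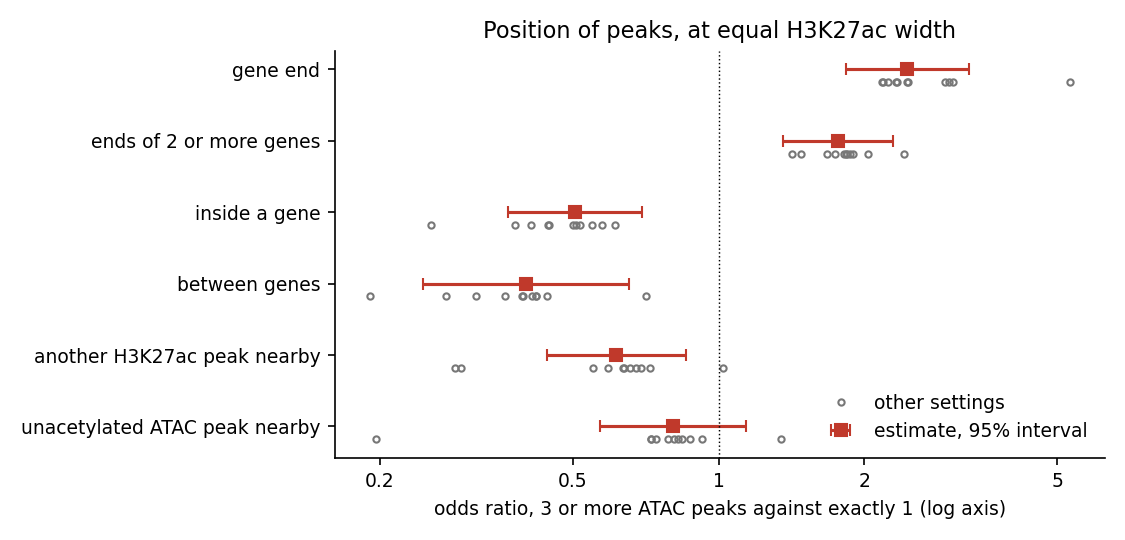
Odds ratios (x axis, log scale) of 6 position outcomes for H3K27ac peaks with 3 or more ATAC peaks against exactly 1 at equal width. Squares with bars are the estimates with 95% intervals, open circles are the same under other settings; for gene ends all circles lie above 1, from 2.17 to 5.31.

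The genes nearest to the regions were shorter on the log scale than those nearest to equally wide peaks with exactly 1 ATAC peak, but not detectably shorter than those nearest to peaks with 2. The nearest gene had a mean log2 length of 14.91 (SD 2.33, n = 346 regions), against 15.30 for peaks with exactly 1 ATAC peak at the same widths. The fitted difference was -0.32 on the log2 scale (-0.57 to -0.07; n = 346; adjusted Wald p = 0.0202). Against exactly 2 ATAC peaks the difference was -0.15 (-0.40 to 0.09; n = 346; adjusted p = 0.407). On the linear scale the median was lower in the regions (30460.5 against 32198.5 bp over all peaks with exactly 1) and the mean higher (92157 against 86672 bp). The call against exactly 1 was lost with the wider 50% of the ATAC peaks, without a term for width and for 4 or more ATAC peaks (adjusted p = 0.106, 0.361 and 0.121 for n = 80, n = 346 and n = 33). Promoter composition did not pass. In 254 regions that overlap a RefSeq promoter window (250 bases before to 50 after a start site), the ratio of observed to expected CpG was 0.791 (SD 0.213), with a fitted difference of -0.0264 (-0.0544 to 0.0016; n = 254; adjusted p = 0.0835). The GC content was 64.5% (SD 9.37), with a fitted difference of 0.0799 percentage points (-1.10 to 1.26; n = 254; adjusted p = 0.895).

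Start sites of transcription were more frequent in these regions than in equally wide peaks with exactly 1 ATAC peak, in a fit chosen after seeing the data. The start table used here holds 27025 genes, more than the 21887 protein-coding ones used for the position classes. Some regions classed as inside or between genes hold a start site in it, such as the one 67957 bp from Kcnrg. The table covers 330 of the 346 regions, all but 16 on chromosome 18. A start site lay inside 250 of them (75.8%, 70.9 to 80.1), against 57.4% of equally wide peaks with exactly 1 ATAC peak (odds ratio 2.11, 1.61 to 2.76; n = 330; adjusted Wald p = 1e-07 over 3 added outcomes). 2 or more start sites lay inside 111 (33.6% against 18.6%; odds ratio 1.98, 1.54 to 2.53; n = 330; adjusted p = 1e-07). Start sites on both strands lay inside 79 (23.9% against 12.8%; odds ratio 1.95, 1.49 to 2.56; n = 330; adjusted p = 1.21e-06). At equal width, peaks with exactly 2 ATAC peaks lay closer, with 70.4, 29.1 and 19.4% in these 3 classes, and the difference from them was not tested. Start sites of protein-coding genes are gene ends, so these outcomes are not independent of those at gene ends. The 3 fits were not repeated under other settings. Mrpl40 and Hira are an example of starts on opposite strands, both inside 1 ATAC peak.

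Where the start sites of a region lay on 1 strand only, more open sites lay downstream of the start than upstream, at a share near that of peaks with exactly 1 ATAC peak. There were 171 such regions with 531 ATAC peaks. The most upstream start site fell inside an ATAC peak in 146 of them (85.4%, against 91.3% of peaks with exactly 1 ATAC peak), and in the widest ATAC peak in 77. Among the 154 with 3 ATAC peaks, the start was in the most upstream peak in 65, in the middle one in 53, in the most downstream one in 15 and in none in 21. Of the 531 midpoints, 308 (58.0%) lay downstream of the start and 223 upstream, against 58.7% downstream at 4399 peaks with exactly 1 ATAC peak. The median position of the most upstream midpoint was -274 bp and that of the most downstream one 796.5 bp from the start. More midpoints lay downstream than upstream in 112 regions and fewer in 54. Acetylation reached a mean of 862 bp upstream and 1456 bp downstream of the start, against 879 and 1472 bp in equally wide peaks with exactly 1 ATAC peak.

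**Figure D5:**
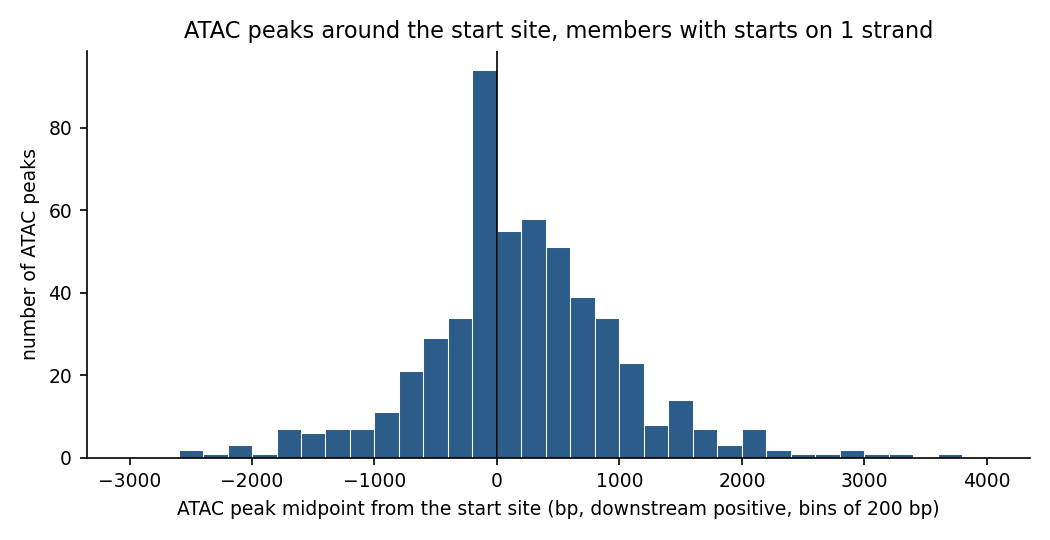
Number of ATAC peaks (y axis, bins of 200 bp) by the distance of their midpoint from the most upstream start site (x axis, bp, downstream positive) in the 171 regions whose start sites lie on 1 strand. Of 531 midpoints, 308 lie downstream, and the fullest bin is the one just upstream of the start.

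The promoter windows of these regions were rich in GC boxes and poor in AT-rich motifs, as were those of peaks with exactly 1 ATAC peak. Of 419 windows of 300 bases overlapping the regions, 70.2% (65.6 to 74.3) held GGGCGG on either strand, against 69.4% of 7662 windows at peaks with exactly 1 ATAC peak and 35.7% of all windows. TATAAA was present in 5.97%, 5.05% and 13.6% in that order, and TAATTA, a core of homeodomain proteins, in 0.955%, 2.04% and 5.29%. CCGGAAG was present in 12.2% (9.38 to 15.7), 22.4% and 8.86%. It was the motif, of 13 searched, whose share differed most in percentage points between the regions and the peaks with exactly 1 ATAC peak. CCAAT was present in 33.7%, 37.7% and 37.4%, TGTGGT, a core bound by Runx factors, in 9.07%, 11.1% and 16.8%, and CANNTG (the E-box) in 59.4%, 60.04% and 72.3%. CCCNNGGG, which resembles the site of Ebf factors, was present in 23.4%, 19% and 13.7%. The letters TGACGTCA were present in 3.10%, 4.05% and 1.79%, and TGACG, which every CRE contains, in 34.4%, 35.2% and 20.8%. The remaining shares were 4.30%, 3.71% and 7.81% for TGANTCA (AP-1), 15.0%, 14.1% and 16.3% for CAGCTG, one of the E-boxes, and 3.82%, 4.79% and 1.87% for CGCATGCG, a core bound by NRF1. The peaks with exactly 1 ATAC peak were not weighted for width here, and their median width was 1088 bp, against 2294.5 bp for the regions. Windows of 1 gene can overlap, and these shares are a description with no test.

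Of 21887 protein-coding genes, 361 (1.65%) had one of the regions within 1 kb of an end. Across 19 gene lists with 402 entries, 12 distinct genes had. Among the 10153 genes with any H3K27ac peak under 4000 bp holding an ATAC peak at an end, the share was 3.56%. The lists were written with earlier results of these data known, and their shares are set beside these 2 shares with no test. H3K27ac peaks of 4000 bp or wider enter none of these shares and none of the counts per list below.

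Immediate early genes, which are transcribed within minutes of stimulation and also respond to dissociation of tissue, held the most by number among the lists. Of 20, 4 (20%, 8.07 to 41.6) had a region at an end, namely Jund, Egr1, Fos and Jun, and 16 had any H3K27ac peak under 4000 bp with an ATAC peak there. Fos, Jun and Jund encode AP-1 subunits, and Egr1 encodes a zinc finger factor. At Jund (chr8:70697859-70701208) 4 ATAC peaks of 149, 690, 128 and 211 bp lay 132, 603 and 535 bp apart. At Jun (chr4:95050162-95053871) 3 peaks of 221, 838 and 199 bp lay 1117 and 343 bp apart, at Fos (chr12:85472018-85475188) 3 peaks of 452, 148 and 386 bp lay 938 and 117 bp apart, and at Egr1 (chr18:34859248-34862174) 3 peaks of 394, 822 and 139 bp lay 418 and 847 bp apart. All 4 regions were wider than the median of the set, and in 3 of them 1 ATAC peak was wider than the other peaks together. The cells were dissociated before they were fixed, and the part of that step in these peaks was not tested.

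Neuronal and sensory genes held regions both at ends and at a distance. Of 24 pan-neuronal genes, 2 had a region at an end: Stmn2, which encodes a microtubule regulator of growth cones (chr3:8509545-8512154, 4 ATAC peaks with gaps of 523, 470 and 115 bp), and Ncam1, a neural adhesion molecule (chr9:49796433-49798851, gaps of 139 and 358 bp). Rtn1, which encodes a reticulon of the endoplasmic reticulum, had a region 92138 bp from the nearest end (gaps of 140 and 692 bp). No gene among 26 pan-sensory transcription factors had a region at an end (Wilson interval up to 12.9%), and 9 of them had any H3K27ac peak under 4000 bp with an ATAC peak there. However, 3 were the nearest gene to 1. The region nearest to Ebf2 lay 44056 bp away, between genes, and was 708 bp wide with gaps of 221 and 110 bp. Those nearest to Pou4f2 (3370 bp wide, gaps of 293 and 122 bp) and Prrxl1 (3438 bp wide, gaps of 587 and 1159 bp) lay 3651 and 1547 bp from an end. The nearest gene is a label of position and need not be the gene that a region acts on.

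Receptor genes of sensory subtypes were represented by single regions. Of 17 proprioceptor genes, none had a region at an end, but only 3 had any H3K27ac peak under 4000 bp with an ATAC peak there. Ntrk3 had a region inside the gene, 1250 bp from an end. That region (chr7:78575836-78579784) was among the widest, at 3949 bp, and among the least covered by open chromatin, at 14.3%, with ATAC peaks of 231, 110 and 222 bp and gaps of 444 and 216 bp. Runx3 had none: its H3K27ac peaks held at most 2 ATAC peaks. Of 16 mechanoreceptor genes, Gfra1, which encodes a receptor for GDNF (gaps of 1233 and 1034 bp), and Meis1, a homeobox cofactor of Hox proteins (gaps of 731 and 319 bp), had a region at an end, and 9 had such a peak. Among 20 nociceptor and thermoreceptor genes, of which 1 had such a peak at an end and none a region, Gfra3, which encodes the artemin receptor, was the nearest gene to 1 region, 9512 bp away, with gaps of 1543 and 1038 bp. Gfra1, Gfra3 and Ntrk3 had wide regions with long gaps, all above the median gap of 181.5 bp. This was not particular to them. Over all regions with 3 open sites, the median width was 1742.5 bp with both gaps 200 bp or less and 2987 bp with neither.

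Other lists held few or none. Of 28 axon guidance genes, 1 had a region at an end (Nrcam, an adhesion molecule; gaps of 113 and 275 bp). Sox12 was the only 1 of 18 Sox and neural crest genes with a region at an end (gaps of 1223 and 441 bp), and Sox4 was the nearest gene to a region 4356 bp away (121 and 780 bp). Foxp1, a forkhead factor gene, was the only 1 of 20 spinal cord neuron genes (gaps of 119 and 343 bp). No region lay at an end of 39 Hox, 24 cell cycle, 23 housekeeping, 24 chromatin regulator, 21 Notch pathway or 22 neurotrophin signalling genes. Of these, 5, 18, 20, 22, 16 and 13 had an H3K27ac peak under 4000 bp with an ATAC peak there. The same count of 0 held for 15 endothelial, 16 blood and immune and 20 muscle and mesenchyme genes, of which 0, 2 and 1 had such a peak. With a share of 3.56% over all genes with such a peak, a 0 in any 1 of these lists is near the background. The chromatin regulator list is a selection: Nsd1, Kat2b and Hira, named above, had a region at an end and are not on it. Regions assigned by distance within these lists lay inside or near Bcl2l1, Ntrk3, Ywhaz and Maml3.

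Regions away from gene ends resembled those at gene ends in size. The 276 at gene ends, the 50 inside genes and the 20 between genes had median widths of 2294.5, 2299 and 2323.5 bp and median coverage by open chromatin of 39.2, 36.4 and 36.1%. Gaps of 200 bp or less made up 54.8% of 586 gaps at gene ends, 43.7% of 103 inside genes and 46.3% of 41 between genes. The regions inside genes lay a median of 7578 bp from the nearest gene end and those between genes 13851.5 bp, and 3 and 1 of them lay over 100 kb away. Cxxc5, a gene of a CXXC zinc finger protein, was the only gene with 2 regions assigned, one 3525 bp from its nearest end with 3 ATAC peaks (gaps of 834 and 586 bp) and one 25861 bp away with 4 (gaps of 458, 375 and 339 bp).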

How the data were processed

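The members, gene lists and motifs were chosen with earlier results of these data known. Both files deposited by the authors are BED lists of peak positions (start and end in bp, 1 consensus list per assay, no signal or score). Per the submitters' processing notes, cutadapt 1.18, Bowtie2 2.3.5.1, MACS2 and bedtools were used with mm10; the consensus rule, peak thresholds and depth are not given in the sources used here. Starts were read as counted from 0. Of 43739 ATAC and 19928 H3K27ac peaks, 43652 and 19924 on chromosomes 1 to 19, X and Y were kept, and within each list no peaks overlapped.

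Genes were 21887 protein-coding RefSeq genes of GRCm38.p6, without strand; strand came from RefSeq promoter windows, not used here for chromosome 18. The windows are written on the gene's strand: TATAAA starts 20 to 40 bases before the start site in 655 windows as given and in 202 after reverse complementing, a check of that reading. All 402 list entries matched, 2 through a synonym. A region was assigned to every gene with an end within 1 kb, otherwise to the nearest gene within 100 kb.

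Position outcomes were fitted by logistic regression, and gene length and promoter composition by linear regression (statsmodels 0.14.6, Python 3.11.15), over all H3K27ac peaks under 4000 bp with at least 1 ATAC peak. Terms were exactly 2 and 3 or more ATAC peaks and width in bins of 250 bp, without bins that hold no member; Wald p-values used standard errors clustered on 1 Mb windows and were Benjamini-Hochberg adjusted over the 9 outcomes. Calls passed at an adjusted p below 0.05. The fit was run on simulated outcomes drawn independently for each peak, which cannot check the clustering of the standard errors. Shares at equal width are means weighted to the members' width bins. Named genes follow a rule: the 12 members with the most ATAC peaks, up to 4 genes per list, genes with several members, the extremes of width and spacing, and Runx3 and Ntrk3; not all are printed, and the result of 1 list is not reported here. Comparison with peaks holding exactly 2 ATAC peaks, start sites and layouts were added after the data were examined.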

Additional observations from a re-analysis of the deposited data

How the results depend on the processing

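No paired analysis was possible because each assay has 1 consensus list, and for the same reason no replicate could be left out. Of 93 fitted alternatives, 69 kept both direction and call. With the direction kept, 14 lost the call and 3 gained it, and 7 changed direction, with or without a change of call. The nearby H3K27ac peak without a width term is among the 7 and also lost its call. The cause was not tested unless stated. With ATAC gaps of 150 bp or less joined, there were 134 members with a median gap of 364 bp, a midpoint distance of 701.5 bp and 32.3% covered, as the joining removes short gaps. The odds ratio between genes was then 0.419 and for a nearby H3K27ac peak 0.676, the CpG difference passed at -0.0841 and the GC difference was -1.45 percentage points. With the wider 50% of the ATAC peaks there were 80 members, with a midpoint distance of 594.75 bp and 41.6% covered. Odds ratios were then 2.17 (gene end), 1.89 (ends of 2 or more genes), 0.410 (inside genes), 0.709 (between genes), 0.690 (nearby H3K27ac peak) and 1.35 (nearby unacetylated ATAC peak), the log2 gene length difference was -0.59 and the CpG difference 0.0343. For 4 or more ATAC peaks (33 members) odds ratios were 1.48 (ends of 2 or more genes), 0.255 (inside), 0.191 (between) and 0.293 (nearby H3K27ac peak), with -0.79 for log2 gene length and -2.27 for GC. Without a width term, the nearby H3K27ac odds ratio was 1.02, gene length -0.13, CpG 0.00543 and GC 1.960, which passed. With log2 width and its square, CpG passed at -0.0324 and GC was -0.23. The gene end odds ratio ranged from 2.17 to 5.31. Autosomes only, at least 50% of the ATAC peak inside, other gene end windows, other width bins, other flanks and a minimum H3K27ac width changed no call. List genes with a member at an end numbered 12, and 11 and 15 with windows of 0.5 and 2.5 kb. The unknown depth limits which weak ATAC peaks could be listed.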

Other observations

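Some gene families recurred among the genes with one of the regions at an end; they were picked by name after the values were seen, and their shares are given with no test. Histone genes, which package DNA and lie in dense clusters, had one in 15 of 70 cases, at 7 regions, since neighbouring histone genes share a region; examples are H2bc13, H2ac13 and H3c10, which lie at the same region, and H4c9, H2ac11 and H2bc11, which lie at another. Of 56 histone genes with any H3K27ac peak under 4000 bp holding an ATAC peak at an end, 26.8% had one of the regions, against 3.56% of 10153 such genes in all. Near-identical copies among histone genes make the placement of reads uncertain. Hnrnp genes, which encode RNA-binding proteins that act in splicing and mRNA handling, had a region at an end in 4 of 21 cases (Hnrnpa1, Hnrnpa2b1, Hnrnpdl and Hnrnpk). Splicing factor genes of the Srsf family had one in 2 of 11 cases (Srsf1 and Srsf2). Over all protein-coding genes it was 361 of 21887 (1.65%). Of the 17 Hnrnp and 11 Srsf genes with such a peak at an end, 23.5% and 18.2% had one of the regions. Each Hnrnp region also lay at an end of another gene (Cbx5, Cbx3, Enoph1 or Rmi1), as did that of Srsf2 (Mfsd11). Zfp genes had one in 12 of 367 cases, or 4.56% of the 263 with such a peak, near the share of all genes.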
